A study of Rattus norvegicus with 6 samples.

Results

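The genes described here encode secreted signals for blood vessels, their receptors and the hypoxia factor that can switch some of them on: the vascular endothelial growth factors Vegfa and Vegfb, the angiopoietins Angpt1 and Angpt2, the angiopoietin receptor Tek, the neuropilins Nrp1 and Nrp2, the endothelial surface receptor Cd93 and the transcription factor subunit Hif1a. The set holds 9 genes, taken by symbol from the 12121 genes of the expression files. C6 is an established rat glioma line. AQP1, a water channel of the plasma membrane, was overexpressed in it from a CMV-driven pCDH vector that also carries CopGFP and a puromycin resistance gene (C6-AQP1), and RNA-seq was run on 3 libraries of C6-AQP1 and 3 libraries of C6 labelled as control. The sources used here do not say if the control cells held an empty vector, if C6-AQP1 is a single clone, or if replicate libraries were made from different cultures. The p-values below therefore reflect differences among these libraries only, and part or all of that spread may be technical.

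VEGF proteins are secreted dimers that act through receptor tyrosine kinases on endothelial cells, and neuropilins are co-receptors that present VEGF to these kinases and also bind class 3 semaphorins. Angiopoietins act on the kinase Tek, which Angpt1 activates and which Angpt2 activates or blocks depending on the setting. HIF1A protein is degraded when oxygen is present and drives Vegfa and many metabolic genes when oxygen is scarce, so its activity is set largely after its RNA is made. Gliomas are known for secreting VEGF, and vessels that have been remodelled by it are a hallmark of the malignant forms.

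Of the 9 genes, 7 rose in C6-AQP1 and 2 fell, at an adjusted p under 0.05 by the edgeR quasi-likelihood test. The same bar was passed upwards by 40.8% and downwards by 40.7% of all 12121 genes, so passing it says little about a gene. Counts of rises and falls in the gene lists below are to be read beside these shares. A differentially expressed gene (DEG) also had to change by more than 2-fold. By this rule 4 members were higher (Vegfa, Angpt1, Angpt2 and Tek), where 9.74% of all genes were, and 1 was lower (Cd93), where 4.35% of all genes were. In each of the 9 genes, the 3 libraries of a group lay wholly on one side of the other group, which held for 82.5% of all genes. The median log2 fold change was 0.64 over the 9 genes and 0.00 over all genes. In RNA from whole cultures, fewer cells that express a gene and less RNA per cell cannot be told apart.

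Library totals ranged from 19054251 to 52725877 counts, with replicate 1 the shallowest library of both groups. Aqp1 itself had 1058 ± 5.81 CPM in C6-AQP1 against 349 ± 2.48 in C6 control (SD, n = 3), a 3.03-fold rise. CPM is the normalized read count, relative to the TMM-scaled total of the library. RNA levels were not compared between genes, because transcript lengths of the annotation used were not at hand. Sums of CPM over a marker list are sums of reads, in which long transcripts weigh more. The files hold genes with a mean TPM above 1 in at least 1 group. A gene that is low in 1 group may thus have been kept through the other group alone. Of 20 endothelial markers, 16 were not analysed here, among them the defining Pecam1, Cdh5, Kdr and Tie1. The 4 with values summed to between 42.8 and 47.6 CPM in C6-AQP1 and between 83.0 and 86.1 in C6 control. Most of this sum was Flt1.

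**Figure D1:**
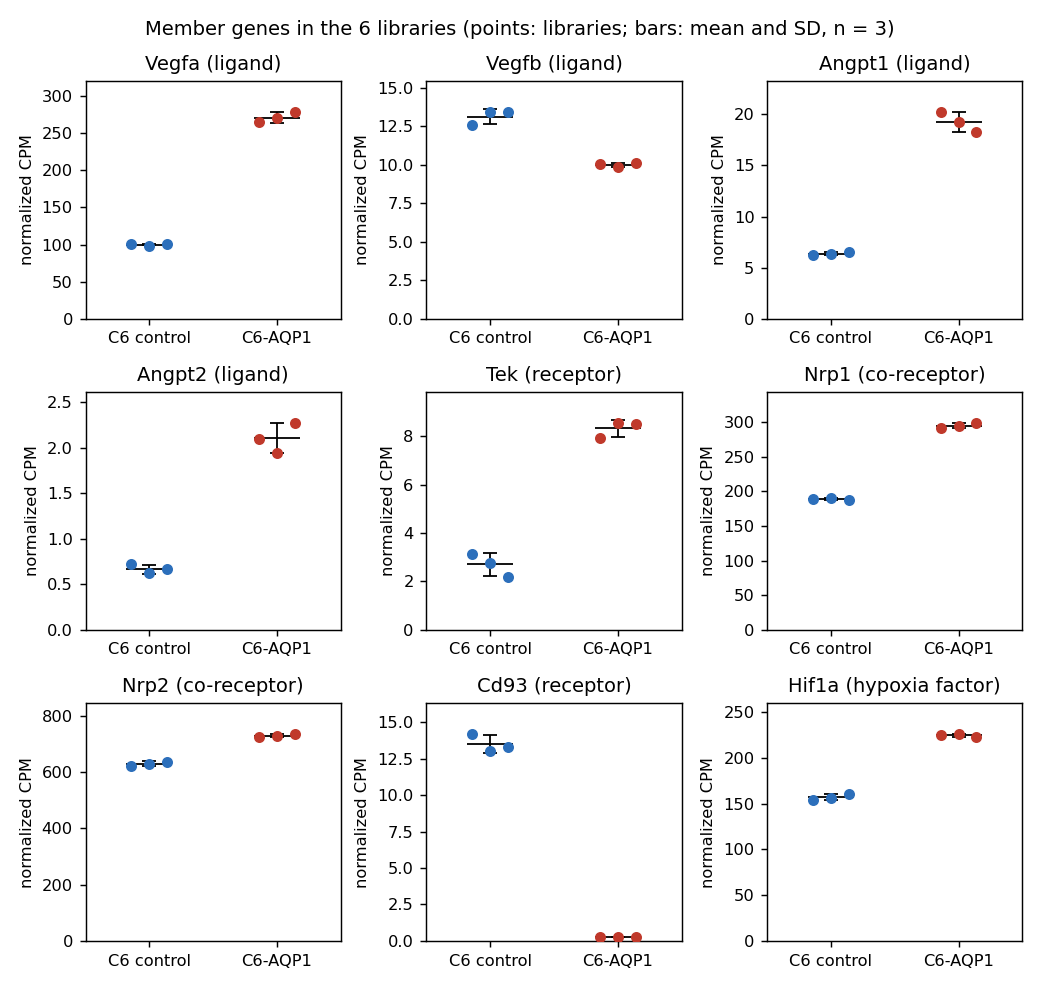
Normalized CPM of the 9 genes in each library, with a linear axis from 0 in every panel. Each point is a library, and black bars are the group mean with its SD (n = 3). The C6-AQP1 points (red) lie above the C6 control points (blue) in 7 panels and below them for Vegfb and Cd93.

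Among the ligands, Vegfa rose and Vegfb fell. Vegfa, the main VEGF of tumours, had 265, 270.2 and 279 CPM in C6-AQP1 replicates 1, 2 and 3 and 100.5, 98.6 and 100.8 CPM in C6 control. The lowest C6-AQP1 library stood 2.63-fold above the highest control library. Its log2 fold change was 1.44 with a standard error of 0.02 (edgeR quasi-likelihood, adjusted p = 4.8e-22), which is 2.72-fold, and 7.32% of all genes had a larger absolute change. Vegfb, which binds the receptor Flt1 but not Kdr, had 10.0, 9.88 and 10.1 CPM in C6-AQP1 and 12.6, 13.4 and 13.4 CPM in C6 control. The groups did not overlap, but the gap between the nearest libraries was only 1.24-fold. The log2 fold change of Vegfb was -0.40 (standard error 0.07, adjusted p = 1.8e-05 by edgeR), from 1033 counts summed over C6-AQP1 and 1661 summed over C6 control.

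Upstream sequence was at hand for 5 of the 9 genes, in 6 windows (RefSeq, GRCr8), and is shown for both VEGF ligands because they moved in opposite directions. The windows are the 250 bases before the annotated start, at chr9:22452604-22452853 on the plus strand for Vegfa (the upstream one of its 2 start sites) and at chr1:213607153-213607402 on the minus strand for Vegfb, printed 5′ to 3′ on the gene's strand. Capitals mark GC boxes (GGGCGG) and hypoxia response cores (ACGTG or GCGTG), both searched on both strands.
Vegfa: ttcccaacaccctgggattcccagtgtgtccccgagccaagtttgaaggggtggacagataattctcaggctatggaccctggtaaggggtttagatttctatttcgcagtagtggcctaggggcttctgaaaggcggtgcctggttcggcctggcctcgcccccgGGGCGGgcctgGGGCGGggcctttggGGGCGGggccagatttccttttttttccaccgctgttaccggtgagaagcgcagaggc
Vegfb: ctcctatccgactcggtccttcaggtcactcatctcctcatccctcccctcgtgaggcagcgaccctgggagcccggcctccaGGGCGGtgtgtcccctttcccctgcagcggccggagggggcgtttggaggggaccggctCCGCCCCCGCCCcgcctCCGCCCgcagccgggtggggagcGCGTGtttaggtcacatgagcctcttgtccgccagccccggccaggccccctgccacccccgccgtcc
The Vegfa window held 3 GC boxes and no hypoxia core, while the Vegfb window held 4 GC boxes and 1 hypoxia core. Of all 33469 windows of this length, 30.5% held a GC box and 36.7% a hypoxia core. The inner start site of Vegfa had neither. A forkhead core (TGTTTAC) was in none of the 6 windows and in 3.21% of all windows, and a MAZ core (GGGAGGG) was in those of Vegfb and Hif1a and in 18.7% of all windows. These are matches of letters within a short window and describe no binding. Sequence outside the 250 bases was not searched, so a window without a hypoxia core does not show that the gene lacks one.

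The other VEGF genes with values split as well. Pgf, the placental growth factor that also binds Flt1, had 91.2, 92.1 and 90.6 CPM in C6-AQP1 and 59.1, 61.5 and 59.2 in C6 control, and its log2 fold change was 0.60 (adjusted p = 5.1e-14 by edgeR). Vegfc, a ligand of lymphatic vessels, fell, with a log2 fold change of -0.43 (adjusted p = 1.7e-07). Flt1, the receptor shared by Vegfa, Vegfb and Pgf, had 34.7, 37.8 and 33.6 CPM in C6-AQP1 and 79.2, 76.4 and 78.1 in C6 control. Every control library held more Flt1 RNA than any C6-AQP1 library, and the log2 fold change was -1.13 (standard error 0.04, adjusted p = 1.1e-16). Of the 8 listed VEGF ligands and receptors, 5 had values, of which 2 rose and 3 fell. Kdr, Flt4 and Vegfd were not analysed here.

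Both angiopoietins and their receptor rose by similar amounts. Angpt1, the activating ligand, had 20.2, 19.2 and 18.2 CPM in C6-AQP1 and 6.24, 6.32 and 6.49 in C6 control. Its log2 fold change was 1.59 (standard error 0.07, adjusted p = 6.8e-15 by edgeR), which is 3.01-fold. Angpt2, the ligand released by activated endothelium, had far fewer reads: 41, 80 and 96 counts in the C6-AQP1 libraries and 16, 32 and 34 in the controls. These correspond to 2.10, 1.94 and 2.27 CPM against 0.718, 0.619 and 0.665 CPM. Even so, the lowest C6-AQP1 library was 2.70-fold above the highest control library, and the log2 fold change was 1.67 with a wider standard error of 0.21 (adjusted p = 1.7e-07 by edgeR). Angpt2 was above 1 CPM before scaling in all 3 C6-AQP1 libraries and in 0 of the control libraries. Because a mean TPM above 1 in 1 group was enough to keep a gene, Angpt2 may be present through C6-AQP1 alone. This split then adds no separate support.

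Tek, the receptor of both ligands, had 7.94, 8.55 and 8.53 CPM in C6-AQP1 and 3.14, 2.78 and 2.19 in C6 control. The control libraries varied by 17.8% of their mean, the widest spread of any member in either group, yet stayed well below the C6-AQP1 libraries. The log2 fold change of Tek was 1.66 (standard error 0.12, adjusted p = 4.2e-11 by edgeR), based on 869 counts in C6-AQP1 and 326 in the controls. Angpt4, Tie1 and Ptprb, the remaining genes listed for this pathway, were not analysed here.

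The neuropilins rose by less. Nrp1, a co-receptor of VEGF and semaphorins, had 292, 295 and 299 CPM in C6-AQP1 and 189, 190.4 and 188 in C6 control, and the log2 fold change was 0.64 (standard error 0.02, adjusted p = 2.9e-17 by edgeR). Nrp2, which favours VEGF-C and class 3F semaphorins, had 723, 727 and 734 CPM against 621, 629.6 and 637. Its rise of 1.16-fold was the smallest change of the 9 genes and was smaller than that of 74.2% of all genes, but the libraries of a group differed by about 1% of their mean (0.752% in C6-AQP1 and 1.26% in C6 control). The log2 fold change of Nrp2 was 0.21 (standard error 0.02, adjusted p = 6.2e-10 by edgeR).

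Of the genes that work with neuropilins, most plexins rose. Plexins carry the semaphorin signal into the cell. Plxna2 went from 6.42, 6.63 and 7.04 CPM in C6 control to 17.8, 18.3 and 17.5 in C6-AQP1, a log2 fold change of 1.41 (adjusted p = 4.6e-14 by edgeR), and Plxna3 and Plxnd1 rose with log2 fold changes of 0.73 and 0.42. Plxna1 fell slightly, with -0.14 (adjusted p = 4.5e-04). Gipc1, an adaptor that binds the tail of Nrp1, fell too, with a log2 fold change of -0.74. In all, 5 of the 7 neuropilins and partners with values rose and 2 fell, where 40.8% of all genes rose and 40.7% fell. Their median log2 fold change was 0.42.

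Of the 6 class 3 semaphorins with values, the secreted ligands of neuropilin and plexin complexes, 4 rose and none fell. Over all genes, 40.8% rose and 40.7% fell. Sema3b had 26.6, 28.6 and 27.1 CPM in C6-AQP1 and 5.97, 6.11 and 7.02 in C6 control, a log2 fold change of 2.10 (adjusted p = 4.5e-17 by edgeR). Sema3d had 760.4, 753 and 748 CPM against 263, 265 and 268, with a log2 fold change of 1.51. Sema3e, the ligand of Plxnd1, and Sema3c had log2 fold changes of 1.05 and 0.29. Sema3a and Sema3f overlapped between the groups and did not pass the test, with log2 fold changes of 0.02 (adjusted p = 0.42) and -0.10 (adjusted p = 0.34). Sema3a did pass when libraries were scaled by their totals alone (log2 fold change 0.07, adjusted p = 0.00362 by edgeR) or by upper-quartile factors (0.05, adjusted p = 0.0274).

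**Figure D2:**
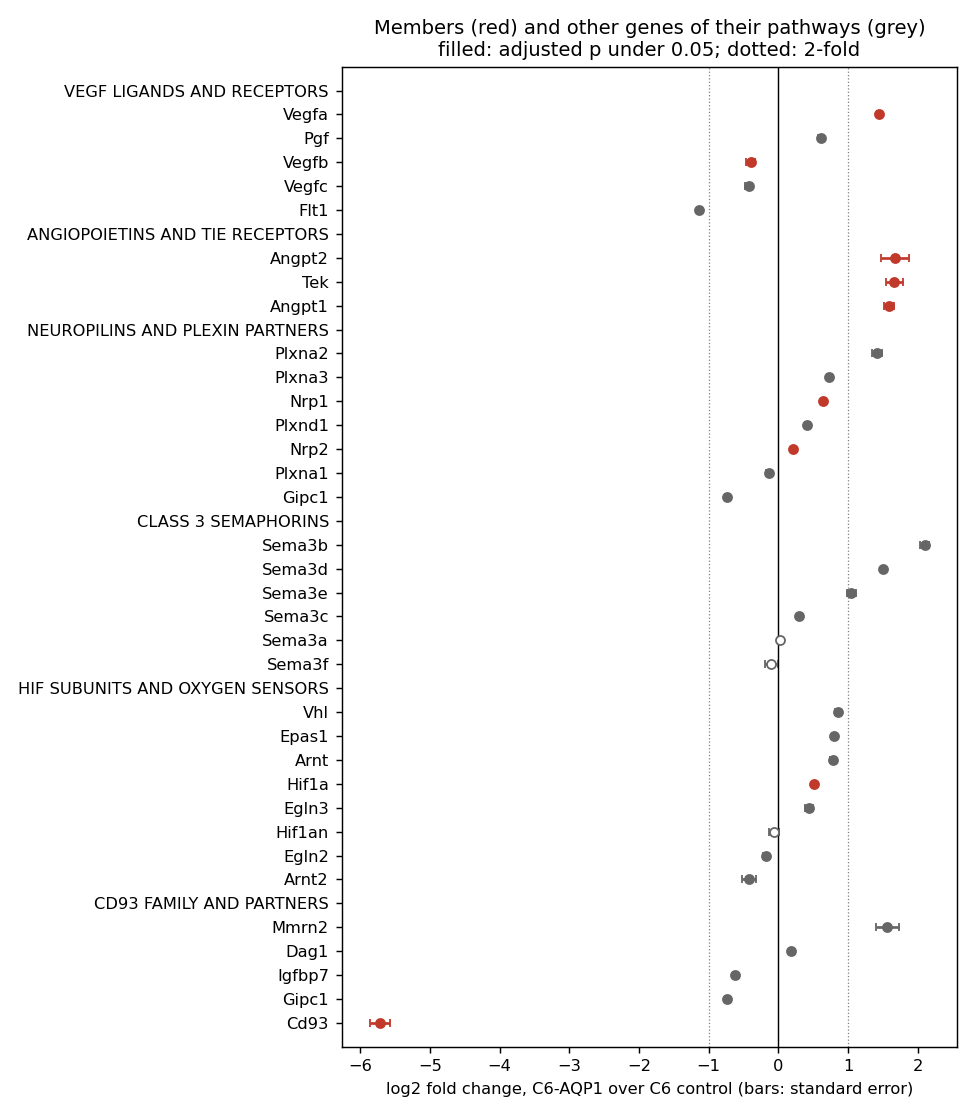
Log2 fold change of C6-AQP1 over C6 control with its standard error, for the 9 genes (red) and the other genes of their pathways with values (grey). Filled points passed an adjusted p of 0.05, and dotted lines mark 2-fold. Angpt1, Angpt2 and Tek lie between 1.59 and 1.67, while Cd93 at -5.72 lies far to the left of every other gene shown.

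Cd93 had by far the largest change of the 9 genes. It encodes a C-type lectin-like receptor of endothelial and myeloid cells that binds the matrix protein Mmrn2. The C6-AQP1 libraries held 5, 11 and 10 counts and the control libraries 316, 673 and 681, which is 0.256, 0.266 and 0.236 CPM against 14.2, 13.0 and 13.3 CPM. The lowest control library was thus 48.8-fold above the highest C6-AQP1 library. The log2 fold change was -5.72 (standard error 0.15, adjusted p = 3.6e-19 by edgeR), so that 1.90% of the control level was left, and 0.149% of all genes had a larger absolute change. Cd93 was above 1 CPM before scaling in the 3 control libraries and in 0 of the C6-AQP1 libraries. Genes were kept by a mean TPM above 1 in at least 1 group. Cd93 may therefore be present through the control libraries alone, and this split adds no separate support.

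Of the 9 genes in the Cd93 family and partner list, 5 had values, with 2 rises and 3 falls. Mmrn2, the matrix ligand of Cd93, had 3.74, 4.26 and 3.81 CPM in C6-AQP1 and 1.17, 1.16 and 1.62 in C6 control, so it rose while Cd93 fell (log2 fold change 1.56, adjusted p = 1.7e-08 by edgeR). Igfbp7, another secreted ligand of Cd93, fell with a log2 fold change of -0.63 (adjusted p = 4.7e-14). Dag1, the matrix receptor dystroglycan, rose with 0.19. Clec14a, Cd248, Thbd and Mmrn1 were not analysed here. Myeloid cells also carry Cd93, and 12 of 15 myeloid markers, the defining Ptprc, Csf1r and Aif1 among them, were not analysed here. The other 3 summed to between 66.2 and 71.6 CPM in C6-AQP1 and between 102.5 and 108.8 in C6 control, and their part in the fall of Cd93 was not tested.

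Hif1a rose moderately, with 226, 226 and 222 CPM in C6-AQP1 and 154, 157 and 160.3 in C6 control. The nearest libraries of the groups were 1.39-fold apart. Its log2 fold change was 0.51 (standard error 0.02, adjusted p = 7.6e-15 by edgeR), and 42.2% of all genes changed by more. The 250 bases before its start (RefSeq, GRCr8, chr6:98359648-98359897, plus strand) are shown as the one member window with several hypoxia cores, in capitals.
Hif1a: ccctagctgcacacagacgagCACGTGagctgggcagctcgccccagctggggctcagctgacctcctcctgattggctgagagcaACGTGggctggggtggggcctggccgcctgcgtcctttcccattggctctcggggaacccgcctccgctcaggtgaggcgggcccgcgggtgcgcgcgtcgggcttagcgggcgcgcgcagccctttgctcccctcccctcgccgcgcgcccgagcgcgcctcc
This window held 3 matches to ACGTG or GCGTG on either strand, of which 2 overlap in a CACGTG, the E box, and it held no GC box. The E box itself was in 5.59% of all windows. The windows of Nrp1 and Nrp2 held 1 hypoxia core each.

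Among the genes that work with Hif1a, both rises and falls were seen. Epas1, which encodes the related HIF-2 alpha subunit, had 225, 238 and 240.5 CPM in C6-AQP1 and 131, 136 and 139 in C6 control, a log2 fold change of 0.79 (adjusted p = 6.5e-16 by edgeR). Arnt, the shared beta subunit, and Vhl, the ubiquitin ligase component that marks HIF alpha subunits for breakdown, had log2 fold changes of 0.78 and 0.86. Of the prolyl hydroxylases that sense oxygen, Egln3 rose with 0.44 and Egln2 fell with -0.17 (adjusted p = 0.0013 by edgeR). Egln1, another of them, and Hif3a were not analysed here. Arnt2 fell with -0.42. Hif1an, the asparagine hydroxylase of HIF, had 15.3 ± 0.611 CPM in C6-AQP1 and 16.1 ± 1.14 in C6 control (SD, n = 3), with overlapping libraries (adjusted p = 0.394 by edgeR). Thus, with Hif1a counted, 5 of the 8 HIF subunits and oxygen sensors with values rose, 2 fell and 1 did not pass. None changed by more than 2-fold. Over all genes, 40.8% rose and 40.7% fell.

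Genes that HIF is known to activate changed in both directions. Of 35 with values, 15 rose, 16 fell and 4 did not pass, where 40.8% of all genes rose and 40.7% fell. Their median log2 fold change was -0.02, next to 0.00 over all genes. Above 2-fold, 5 were higher. Car9, the carbonic anhydrase often used as a hypoxia marker, had 69.1, 78.3 and 73.3 CPM in C6-AQP1 and 15.8, 15.4 and 15.5 in C6 control, a log2 fold change of 2.25 (adjusted p = 1.3e-20 by edgeR). Ddit4, an inhibitor of mTORC1, Pfkfb3, a regulator of glycolysis, and Aldoc, the brain aldolase, had log2 fold changes of 1.81, 1.77 and 1.48, and the fifth was Ndrg1 with 1.26, named after its value was seen. The single gene lower by more than 2-fold was Slc2a1, the glucose transporter GLUT1, also named after its value was seen, with 18.2, 18.7 and 16.9 CPM against 42.9, 45.8 and 42.9 (log2 fold change -1.29, adjusted p = 4.0e-16). Gapdh, a glycolytic enzyme and common reference gene, fell with -0.81, and Ldha, lactate dehydrogenase A, likewise chosen after its value was seen, with -0.94.

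**Figure D3:**
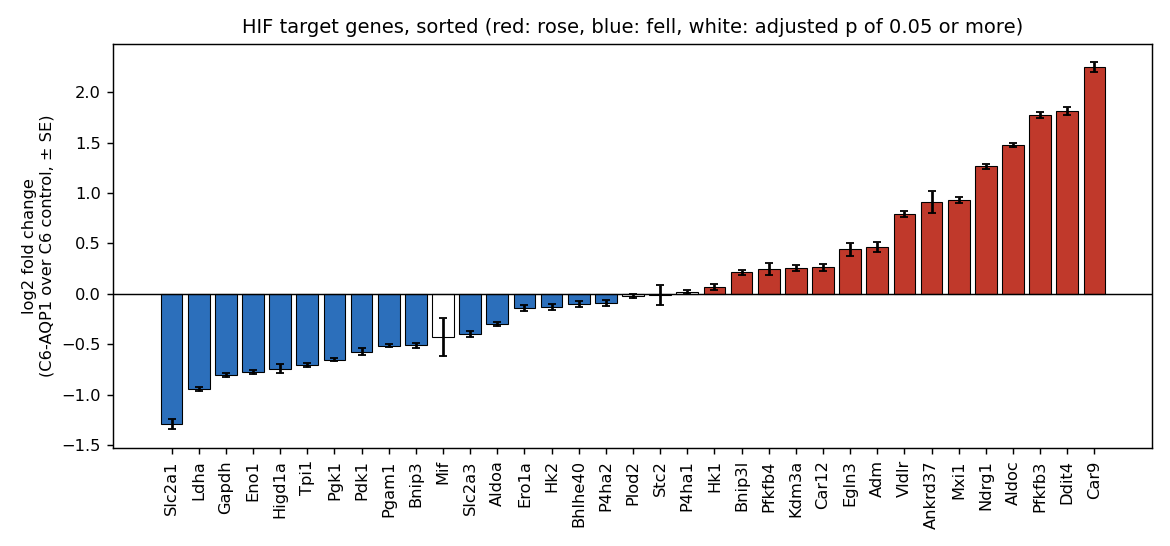
Log2 fold change with standard error of 35 HIF target genes, sorted. Red bars rose, blue bars fell and white bars did not pass an adjusted p of 0.05. The bars run from -1.29 for Slc2a1 to 2.25 for Car9, with 15 red and 16 blue.

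Ordered by log2 fold change, the 9 genes ran Angpt2, Tek, Angpt1, Vegfa, Nrp1, Hif1a, Nrp2, Vegfb and Cd93. The first neighbours in this order lay within 2 combined standard errors of each other: Angpt2 and Tek were 0.01 apart (combined standard error 0.24), Tek and Angpt1 0.07 (0.14), and Angpt1 and Vegfa, just short of that bound, 0.15 (0.08, a ratio of 1.94). From Vegfa on, every neighbour was more than 2 combined standard errors away, the closest being Nrp1 and Hif1a with a difference of 0.13 (combined standard error 0.03). The combined standard error takes the 2 estimates as independent, although both come from the same libraries, so this bound is only a rough guide.

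Ratios of 2 members within a library, in which scaling largely cancels, were compared as well (6 pairs, exact two-sided permutation test over the 6 libraries, smallest possible p = 0.1). The log2 ratio of Angpt2 to Angpt1 was -3.24, -3.28 and -2.98 in C6-AQP1 and -3.03, -3.25 and -3.19 in C6 control. These values overlap, and the difference of -0.01 had a standard error of 0.11 (exact p = 1). The ratio of Angpt1 to Tek overlapped too, with a difference of -0.03 and a standard error of 0.18 (exact p = 0.8). A p of this size does not show that these genes kept their proportion.

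The ratio of Vegfa to Vegfb did not overlap between the groups. It was 4.71, 4.77 and 4.77 in C6-AQP1 and 2.99, 2.87 and 2.90 in C6 control, a difference of 1.83 with a standard error of 0.04, or 3.55-fold (exact p = 0.1, adjusted p = 0.15). Vegfa also rose against Hif1a by 0.92 (standard error 0.03) and against its co-receptor Nrp1 by 0.80 (standard error 0.02), and Nrp2 fell by 0.43 against Nrp1 (standard error 0.01), all without overlap and each at the same exact p = 0.1. With 3 libraries against 3 no pair could go lower.

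**Figure D4:**
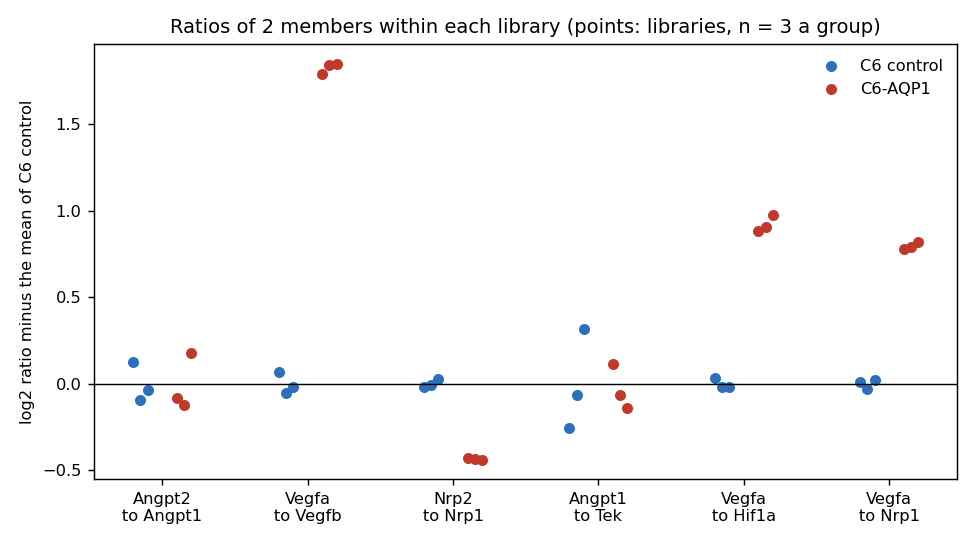
Log2 ratio of 2 members in each library, minus the mean of C6 control for that pair. Points are libraries, 3 a group. The pairs Angpt2 to Angpt1 and Angpt1 to Tek overlap between groups, and the other 4 pairs do not.

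Genes that act beyond the ligands and receptors changed in both directions. In the list of VEGF signalling in receptor-bearing cells, 7 of 21 genes with values rose and 10 fell, with a median log2 fold change of -0.02. Its largest changes were in the protein kinase C genes Prkcb and Prkca (1.86 and 1.19), in the phosphoinositide 3-kinase subunit Pik3r1 (1.10) and in the MAP kinase kinase Map2k1 (-0.78). Of 6 genes that release or process VEGF, 2 rose and 4 fell. The gelatinases Mmp9 and Mmp2 rose with 2.73 and 2.47, from control levels of only 1.58 ± 0.223 and 0.670 ± 0.215 CPM (SD, n = 3). Both may have been kept through C6-AQP1 alone. Ctgf, a matrix protein that binds VEGF, fell with -1.71, and the proteases Adamts1, Furin and Pcsk7 fell with -0.26, -0.34 and -0.57.

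Among 22 other angiogenic factors with values, 15 rose and 6 fell, with a median log2 fold change of 0.77. Efnb2, the arterial ephrin, Gpnmb, a glycoprotein of glioma, and Ptn, the heparin-binding growth factor pleiotrophin, rose with 2.63, 1.67 and 1.44, while Ctgf, which is also in this list, fell as given above. The control level of Efnb2 was only 1.25 ± 0.228 CPM (SD, n = 3). Among 15 inhibitors of angiogenesis, 9 rose and 4 fell, with a median of 0.39. Col4a3, the source of tumstatin, Col18a1, the source of endostatin, and Thbs1, thrombospondin 1, rose with 3.13, 1.02 and 0.92. Col4a3 had only 1.82 ± 0.593 CPM in C6 control (SD, n = 3). The secreted protease Adamts8 fell with -5.86, to 0.0803 ± 0.0750 CPM from 5.25 ± 0.257 (SD, n = 3). Adamts8 had only 9 counts in C6-AQP1, most of them in replicate 3, without which its log2 fold change was -7.17. Like Cd93, Adamts8 may have been kept through the control libraries alone. Both lists held more rises than falls, where 40.8% of all genes rose and 40.7% fell. The lists were chosen with earlier results of these data known, and no test was run over a list.

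Marker genes of vessel-associated cells with values were few. Of the 4 endothelial markers with values, Mmrn2 rose, Flt1 fell, Egfl7 had a log2 fold change of 0.18 (adjusted p = 0.23 by edgeR) and Esam of -0.48 (adjusted p = 0.023). The Esam libraries overlapped, and its call was lost with DESeq2 (adjusted p = 0.0727) and, with an adjusted p of up to 0.171, without C6-AQP1 replicate 1 or 2 or C6 control replicate 3. Of 11 pericyte markers 4 had values. Pdgfrb rose with 0.35 (adjusted p = 4.7e-04), Tagln fell with -2.32 (adjusted p = 4.0e-09), Cspg4, which oligodendrocyte progenitors also express, had 0.07 (adjusted p = 0.0195, lost without C6-AQP1 replicate 2 or 3 or C6 control replicate 1), and Myh11 -0.23 (adjusted p = 0.0618). Of 15 myeloid markers 3 had values. P2ry12 rose with 1.22, and Cd14 and Tmem119 fell with -0.78 and -0.59.

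Glial markers of the C6 line summed to 7815 to 8087 CPM in C6-AQP1 and 5542 to 5672 in C6 control, mostly from Vim, Nes, Pdgfra and Cspg4. Of the 11 listed, Fabp7 and Sox9 were not analysed here. All 9 with values rose, where 40.8% of all genes did. The count was 8 to 9 over left-out libraries, and the Cspg4 libraries overlapped between the groups. Slc1a3 had few reads in both groups, with 3.51 ± 0.323 CPM in C6-AQP1 and 1.60 ± 0.146 in C6 control (SD, n = 3). Gfap, the astrocyte filament, led with a log2 fold change of 3.57, followed by Slc1a3, a glutamate transporter, with 1.13 and Olig2, a progenitor factor, with 0.93, while Pdgfra, Vim, S100b, Sox2 and Nes rose with 0.71, 0.70, 0.66, 0.54 and 0.26 and Cspg4 as given above.

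Some genes outside these pathways followed the members closely over the 6 libraries. Likeness was measured as the root mean square difference of centred log2 CPM, among 11227 genes with a mean of at least 50 counts. Vegfa was closest to Zfp142, a zinc finger gene (0.00828), Stard13 (0.0201), and Dock10, a guanine nucleotide exchange factor gene (0.0221). Tek, with its noisier controls, had no such close match, the nearest being Slc15a3 (0.0786), Casc1 (0.0804) and RGD1560470 (0.0829). Cd93 had looser matches still, the nearest being Tmem132e, a membrane protein gene (0.235), the cytokine gene Il33 (0.478) and LOC100909856 (0.485). Their log2 fold changes were -5.84, -4.64 and -10.05, against -5.72 for Cd93. A prior count of 2 was used here, which narrows differences between genes with very few counts in a group. With 2 groups of 3 libraries, likeness reflects mostly the size of the group difference.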

How the data were processed

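RNA-seq of 3 C6-AQP1 and 3 C6 control libraries was analysed. The authors used FastQC (0.11.2), Trimmomatic (0.36), STAR (2.5.1b) on rn6 and RSEM (1.2.29) (named in the submitters' processing notes and the study's methods), amplified the cDNA before library construction, and kept genes by mean TPM. The deposited values are expected counts per gene, not normalized, and RSEM divides reads that fit several genes. No source used here names the annotation release.

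Expected counts were rounded and scaled by TMM in edgeR 4.0.16 (R 4.3.3). The groups were compared with the robust quasi-likelihood fit, without covariates, and p-values were adjusted over 12121 genes after Benjamini and Hochberg. The DEG rule was an adjusted p below 0.05 plus a change beyond 2-fold. Standard errors come from the fold change and its test statistic. The log2 ratios used a prior count of 2 and an exact permutation test over libraries. Alternatives were DESeq2 1.42.0, limma-voom (limma 3.58.1), other scalings, a CPM filter, thinning to the smallest total, the replicate number as a block, and leaving out libraries. The edgeR, DESeq2 and voom steps were tested on simulated data. Replicates differed by more than sampling noise (chi-square per degree of freedom 2.15 to 4.29), so none was treated as a repeat deposit of another library, which does not show that they came from different cultures. The common coefficient of biological variation was 2.97%.

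The members, gene lists and tests were chosen with earlier results of these data known. The named genes are the members, Aqp1 and Gapdh, up to 4 genes of each list with the largest absolute change (all genes where fewer than 10 had values), and the 3 nearest patterns of Vegfa, Tek and Cd93. Others are marked in the text. Upstream sequences are from RefSeq (GRCr8), a later build than rn6, and no counts were read by coordinate.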

Additional observations from a re-analysis of the deposited data

How the results depend on the processing

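Each of the 9 genes kept its direction and its call in all 15 alternatives, with log2 fold changes between 1.42 and 1.5 for Vegfa, -0.42 and -0.32 for Vegfb, 1.54 and 1.64 for Angpt1, 1.60 and 1.76 for Angpt2, 1.53 and 1.78 for Tek, 0.63 and 0.70 for Nrp1, 0.20 and 0.26 for Nrp2, 0.50 and 0.57 for Hif1a, and -5.77 and -5.49 for Cd93. The highest adjusted p among these was 0.00478, for Vegfb. The 4 higher DEGs and the 1 lower DEG stayed at those numbers in all of them. Scaling moved the median log2 fold change of all genes to at most 0.05, with library totals alone.

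The log2 ratio of Angpt2 to Angpt1 changed sign with a prior count of 0 (0.0576), without replicate 1 in both groups (0.10) and over single left-out libraries (-0.102 to 0.0596), and that of Angpt1 to Tek over left-out libraries (-0.16 to 0.13). The exact test could not give a p below 0.1 in any setting, so no ratio could be called. The lack of a call therefore says nothing about these pairs. Vegfa to Vegfb moved to 1.88 without replicate 1 in both groups. Hif1an, not called, changed sign without replicate 1 in both groups (0.00271). Falls among endothelial markers went from 2 to 1 with DESeq2 and were 1 to 2 over left-out libraries. Among pericyte markers, over left-out libraries, rises were 1 to 2 and falls 1 to 2, and falls went to 2 when thinned to the smallest library total, as Myh11 then passed.

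The replicate numbers did not clearly pair the libraries. Deviations of same-numbered libraries correlated at 0.126, -0.0124 and 0.0651. C6-AQP1 replicates 1 and 3 correlated best with the control of the same number, and C6-AQP1 replicate 2 with C6 control replicate 3 (0.106). Correlations this weak cannot settle whether same-numbered libraries were made together. With the replicate block, 5006 genes were higher and 4976 lower at an adjusted p under 0.05, against 4948 and 4930 without it, the falls among pericyte markers went to 2, and no member's call changed. Among the 9 genes, the lowest summed counts of a group were those of Cd93 in C6-AQP1 (26) and of Angpt2 in C6 control (82).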
